A study of Macaca mulatta with 20 samples.

Results

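Kupffer cells are the macrophages that live in the sinusoids of the liver. Their identity genes and the 3 genes of complement C1q were followed here in liver biopsies of rhesus monkeys (Macaca mulatta). The set holds 10 named genes, CD5L, MARCO, TIMD4, VSIG4, CD163, SIGLEC1, CSF1R, C1QA, C1QB and C1QC, out of 18288 genes in the deposited tables, and each of the 10 was found by its symbol. RNA was sequenced from 20 biopsies of 10 animals, 5 under caloric restriction (CR, animals 004, 007, 008, 011 and 012) and 5 on the control diet (Control, animals 001, 005, 006, 009 and 010). Every animal was sampled after 2 years on its diet (year 2) and before it, at enrolment (year 0), which gives 4 groups of 5 libraries: CR at year 2, CR at year 0, Control at year 2 and Control at year 0. The CR animals had therefore not yet been restricted at year 0. The degree of restriction and the age of the animals are not given in the labels used here. A biopsy is a mixture of hepatocytes and other cells, so that fewer macrophages and less of an RNA per macrophage cannot be told apart in any value below.

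Kupffer cells remove particles, dying cells, old red blood cells and bacteria from the blood that reaches the liver from the gut. They depend on signals through CSF1R, the receptor for the growth factors CSF1 and IL34. CD5L is a scavenger protein that macrophages secrete, MARCO a scavenger receptor for bacteria and particles, CD163 the receptor for haemoglobin bound to haptoglobin, and TIMD4 a receptor for phosphatidylserine on dying cells. VSIG4 is a receptor for fragments of complement C3, and SIGLEC1 (sialoadhesin) binds sialic acid on other cells and on microbes. C1QA, C1QB and C1QC encode the chains of C1q, which recognises bound antibody and cell debris and starts the classical complement pathway together with the proteases C1R and C1S. Most complement proteins come from hepatocytes, while C1q comes mainly from macrophages.

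The 10 genes covered a wide range of levels in TPM, a unit that takes transcript length into account. The C1q chains stood highest, with a median over 20 libraries of 332.6 TPM for C1QB, 283.4 TPM for C1QA and 236.2 TPM for C1QC. CD5L followed, between 84.9 and 454.6 TPM, then MARCO at a median of 75.4, CD163 at 56.0, CSF1R at 38.7, VSIG4 at 35.4, SIGLEC1 at 10.1 and TIMD4 at 2.19 TPM. Most neighbours in this order kept it in nearly every library, CD5L over MARCO in 20 of 20 and MARCO over CD163 in 19 of 20. C1QC and CD5L did not: C1QC was the higher of that pair in 12 of 20 libraries. In the gene order of the RefSeq assembly T2T-MMU8v2.0, C1QB, C1QC and C1QA lie side by side on chromosome 1, between EPHB2 and EPHA8. CD5L is also on chromosome 1, CSF1R and TIMD4 are on chromosome 6, and VSIG4 is on the X chromosome. Each of the 10 genes had 1 transcript in the deposited tables.

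Library totals ran from 20883559 to 31440640 estimated counts, except for 15421789 in Control 009 at year 2. That library and Control 001 at year 2 stood apart from the other 18. In Control 009 at year 2 albumin RNA made up 5.42% of all counts, in Control 001 at year 2 it made up 8.57%, and the other libraries had 10.6% to 15.8%. The scaling factor was 1.66 for Control 009 and 0.763 for Control 001, against 0.900 to 1.11 in the others. Without the 2 animals many values for Control moved, some towards 0 and some away from it, and these are given beside the results. Defining markers of hepatocytes, stellate cells and cholangiocytes were detected in every library. CLEC4F, a Kupffer cell marker of mice, was listed at 0 in 19 of 20 libraries.

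Values per library are given below as normalised CPM, that is, CPM on library sizes scaled by TMM (trimmed mean of M-values). They compare libraries for 1 gene and not genes with each other. CD5L was at 109.8, 111.0, 276.0, 308.7 and 253.0 normalised CPM in CR animals 004, 007, 008, 011 and 012 at year 2. At year 0 the same CR animals had 404.2, 342.3, 343.9, 378.7 and 319.3. Control animals 001, 005, 006, 009 and 010 had 275.8, 329.4, 525.1, 141.8 and 127.8 at year 2 and 176.1, 121.0, 146.2, 230.8 and 237.7 at year 0. The CR libraries of year 0 were thus all above the Control libraries of year 0, and the value at year 2 was below that at year 0 in each of the 5 CR animals. In Control, 3 animals were higher at year 2 and 2 were lower, and the range at year 2 took in nearly all values of the other groups.

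**Figure D1:**
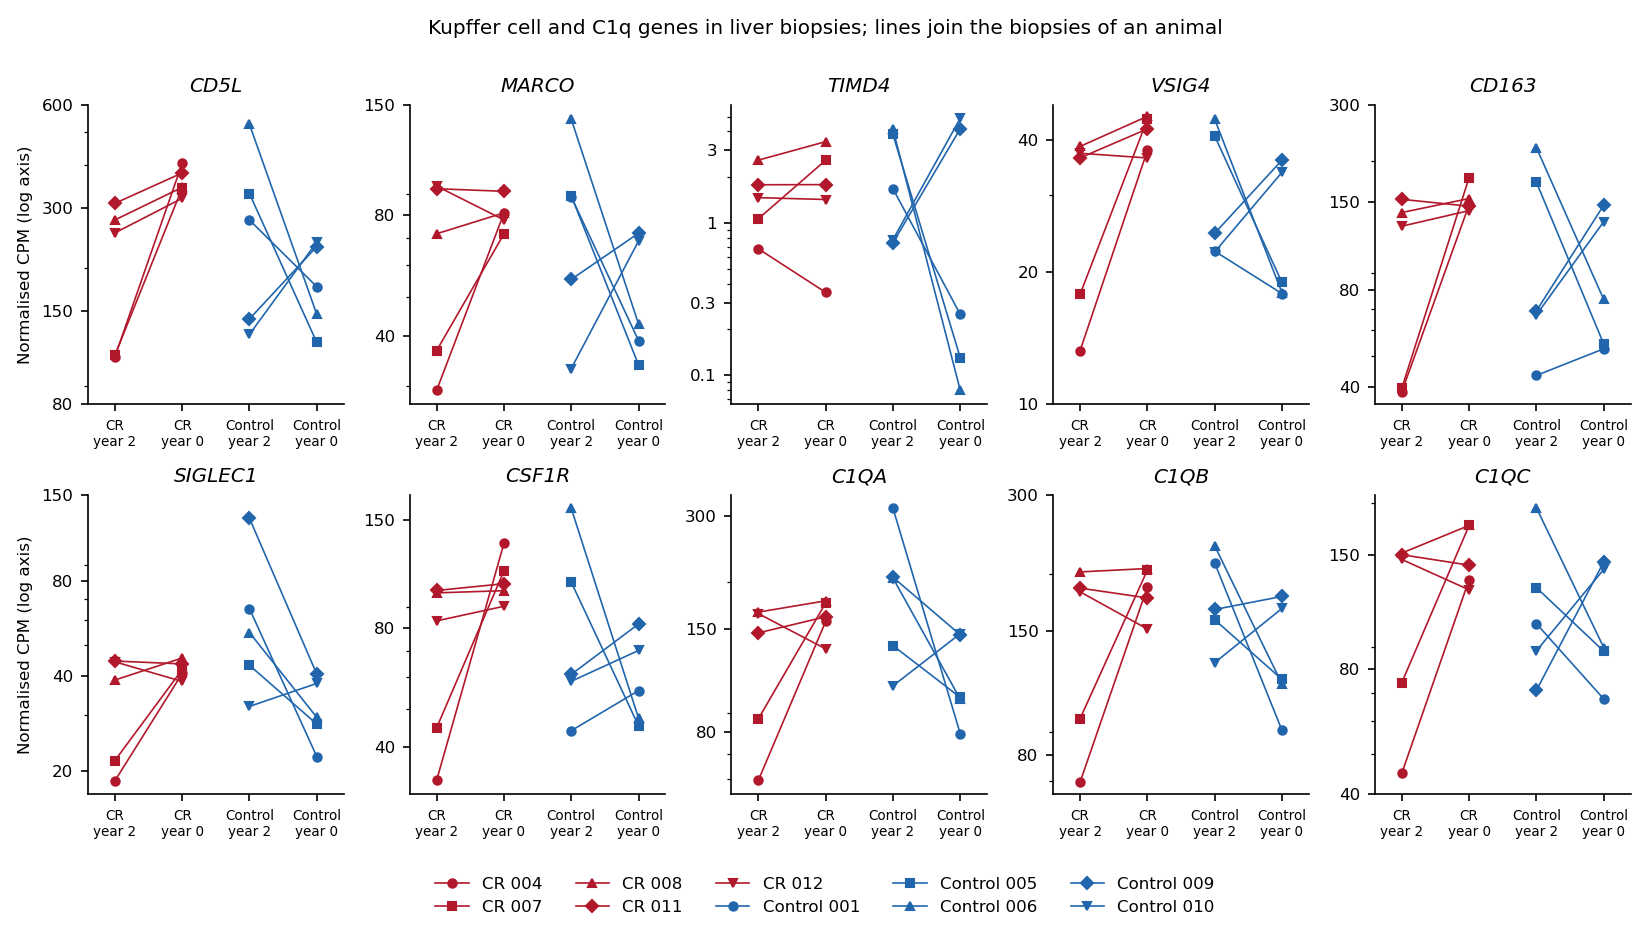
Normalised CPM of the 10 genes on log axes, for CR at year 2, CR at year 0, Control at year 2 and Control at year 0. Each point is a library and lines join the biopsies of an animal. CR libraries lie close together at year 0 for every gene but TIMD4, and animals 004 and 007 are the lowest of CR at year 2 for every gene.

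MARCO showed a like order of libraries, with 29.3, 36.8, 71.7, 92.7 and 94.1 normalised CPM in CR animals 004, 007, 008, 011 and 012 at year 2, against 80.6, 71.6, 80.8, 91.4 and 77.6 at year 0. Control animals 001, 005, 006, 009 and 010 had 88.6, 89.1, 138.1, 55.2 and 33.2 at year 2, against 38.9, 33.9, 42.8, 71.9 and 68.7 at year 0. The groups overlapped at both times, at year 0 only through Control 009, which was above the lowest CR library. CD163 ranged from 38.7 to 152.6 in CR at year 2 and from 140.8 to 178.3 in CR at year 0. In Control it ranged from 43.5 to 220.6 at year 2 and from 52.5 to 146.4 at year 0. Its lowest libraries were CR 004 (38.7) and CR 007 (39.7) at year 2, and its highest was Control 006 at year 2.

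At year 2 VSIG4 was at 13.2 normalised CPM in CR 004 and 17.8 in CR 007. The remaining CR libraries of that time had 36.4 to 38.6. At year 0 the CR animals lay between 36.36 and 45.24. Control ranged from 22.2 to 44.6 at year 2 and from 17.84 to 35.95 at year 0, so that the arms did not overlap at year 0 but came close to each other. SIGLEC1 ranged from 18.6 to 44.5 in CR at year 2 and from 38.4 to 45.5 in CR at year 0. In Control at year 2 it was at 65.2, 43.2, 54.8, 126.1 and 32.0 in animals 001, 005, 006, 009 and 010, against 22.2, 28.1, 29.5, 40.5 and 37.8 at year 0. The library that stood apart most, Control 009 at year 2, held the highest SIGLEC1 value of all 20.

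TIMD4, in mice a marker of Kupffer cells that were seeded before birth, was the scarcest of the set and the one that differed most between animals. CR animals 004, 007, 008, 011 and 012 had 15, 30, 74, 49 and 37 counts at year 2, against 11, 70, 110, 45 and 42 at year 0. Control animals 001, 005, 006, 009 and 010 had 33, 116, 120, 19 and 17 counts at year 2, against 7, 3, 2, 106 and 131 at year 0. Control thus held 3 animals with 7 or fewer counts and 2 with over 100 at year 0. The order was turned round at year 2, when 005 and 006 were highest and 009 and 010 lowest. Set against VSIG4, TIMD4 had 9.26 to 75.7 counts for each 1000 counts of VSIG4 in CR at year 0 and 4.44 to 144.8 in Control at year 0. At year 2 this ratio ran from 39.4 to 67.0 in CR and from 30.3 to 93.6 in Control.

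CSF1R, on which macrophages depend, was at 33.0, 44.7, 97.9, 99.3 and 83.2 normalised CPM in CR animals 004, 007, 008, 011 and 012 at year 2. At year 0 they had 130.5, 111.2, 99.2, 103.3 and 90.6. Control animals 001, 005, 006, 009 and 010 had 44.0, 104.3, 160.2, 61.0 and 58.6 at year 2, against 55.5, 45.2, 47.3, 81.7 and 70.1 at year 0. All CR values of year 0 were above all Control values of year 0. Within CR the value at year 2 was below that at year 0 in each of the 5 animals, by little in 008, 011 and 012.

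The C1q chains followed the same libraries. C1QC was at 44.9, 74.0, 151.5, 150.1 and 146.2 normalised CPM in CR animals 004, 007, 008, 011 and 012 at year 2, against 130.8, 176.5, 176.5, 141.7 and 123.6 at year 0. Control animals 001, 005, 006, 009 and 010 had 102.5, 125.1, 194.5, 70.9 and 88.2 at year 2, against 67.6, 88.1, 89.9, 144.2 and 138.4 at year 0. C1QA ranged from 59.7 to 166.8 in CR at year 2 and from 133.2 to 178.7 in CR at year 0, and C1QB from 69.7 to 202.6 and from 151.6 to 206.1. In Control, C1QA ranged from 106.3 to 314.8 at year 2 and from 79.3 to 146.2 at year 0, and C1QB from 127.8 to 231.2 and from 90.6 to 178.9. The highest C1QA value was that of Control 001 at year 2.

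Within a library the C1q chains kept a near constant ratio, apart from the same 2 libraries. Estimated counts of C1QA over C1QC lay between 0.979 and 1.33 in 18 libraries, with a median of 1.10. The ratio was 3.07 in Control 001 and 2.91 in Control 009 at year 2. C1QB over C1QC was 2.07 and 2.36 there, against 1.16 to 1.55 in the other 18. SIGLEC1 over C1QC was 0.636 in Control 001 and 1.78 in Control 009, against 0.237 to 0.415. VSIG4 over C1QC stayed within or near the range of the others in these libraries, at 0.217 and 0.345 against 0.199 to 0.326. CD163 over C1QC was 0.424 in Control 001, below the 0.536 to 1.38 of the other 18, and 0.971 in Control 009. The albumin share was also lowest in these 2 libraries, and its part in the ratios was not tested. With both animals left out, the fitted change in Control was 0.38 for C1QA and 0.45 for SIGLEC1 on the log2 scale, against 0.71 for C1QA and 0.90 for SIGLEC1 with them.

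**Figure D2:**
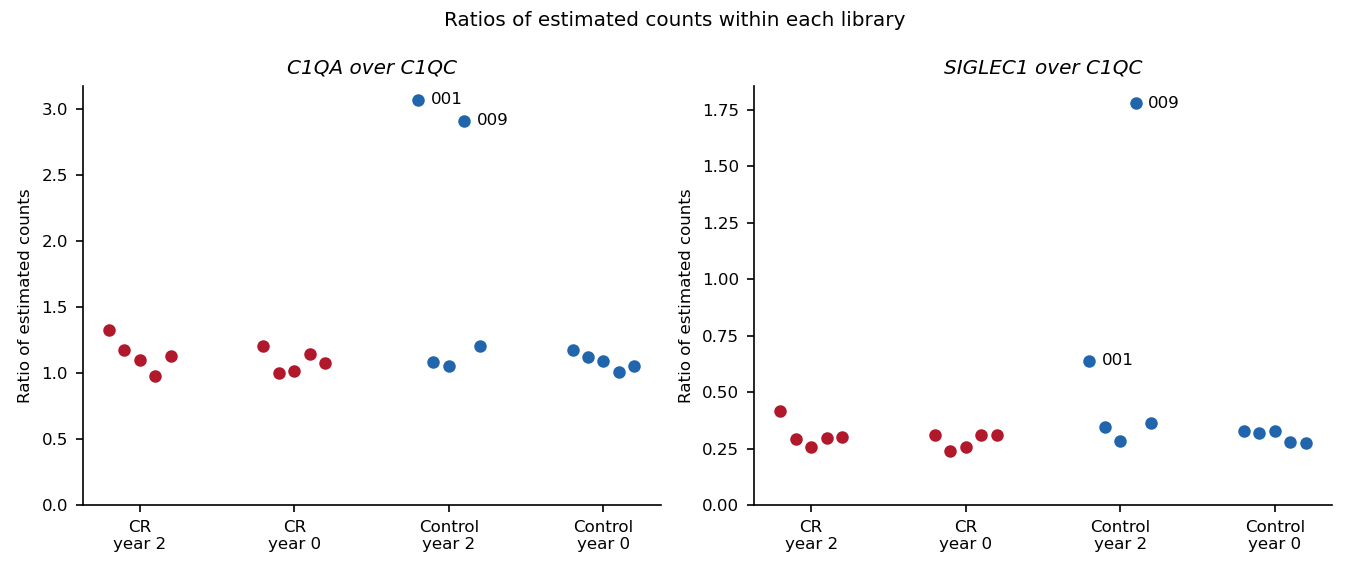
Ratio of the estimated counts of C1QA to C1QC (left) and of SIGLEC1 to C1QC (right) in each library, by group. Points are libraries, in order of animal number. Control 001 and 009 at year 2 lie at 3.07 and 2.91 for C1QA, and the other 18 libraries between 0.979 and 1.33.

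The comparison at year 0 asks how the arms differed before any diet. All 10 genes had fitted values higher in CR, with a median log2 difference of 0.58 against -0.02 over all 13244 genes tested, of which 47.7% were fitted higher. By edgeR's quasi-likelihood test with Benjamini-Hochberg adjustment 0 of the 10 passed, where 0.242% of all genes did. At an unadjusted p under 0.05 were 9 of the 10, all higher in CR, against 9.21% of all genes higher at that level. For CD5L the log2 difference was 0.97 ± 0.18 (SE, adjusted p = 0.0561 by edgeR), with 357.7 ± 33.5 normalised CPM in CR and 182.4 ± 51.3 in Control (SD, n = 5 each). For CSF1R it was 0.84 ± 0.17 (adjusted p = 0.0645 by edgeR), with 107.0 ± 15.1 in CR and 60.0 ± 15.6 in Control. Next came CD163 at 0.74 ± 0.28, VSIG4 at 0.73 ± 0.21 and MARCO at 0.65 ± 0.20, with adjusted p of 0.202, 0.125 and 0.145 by the same edgeR test. C1QA stood at 0.51 ± 0.17, C1QC at 0.51 ± 0.21, C1QB at 0.47 ± 0.18 and SIGLEC1 at 0.41 ± 0.15. TIMD4 stood at 0.01 ± 0.99, and its direction turned with the animal left out.

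The values of the arms at year 0 did not overlap in 3 of the 10 genes, CD5L, VSIG4 and CSF1R, all higher in CR, against 2.84% of all genes. The outcome of the test at year 0 depended on the tool and on single Control animals. DESeq2 called 4 of the 10 (6.02% of all genes it tested), CD5L, CSF1R, VSIG4 and MARCO, and limma on log2(TPM + 1) called CD5L, CSF1R and VSIG4 (2.90% of all genes). Without Control 001 edgeR called CD5L (adjusted p = 0.041), where it called 340 genes or 2.55% of all. Without Control 009 it called CD5L and CSF1R (adjusted p = 0.0498 for each), where 0.329% of all genes were called, and so it did without both animals (adjusted p = 0.0446 for CD5L and 0.0444 for CSF1R), where 1.69% of all genes were called. Over the 17 alternatives the adjusted p of CD5L ran from 8.11e-05 to 0.635 and that of CSF1R from 0.000765 to 0.689, lowest by DESeq2 and highest in the fit that used all 20 libraries.

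Other macrophage and monocyte genes, and a list of receptors for dying cells and scavenged ligands, were mostly fitted in the same direction at year 0. Of 14 genes found in most macrophages, 13 were fitted higher in CR, 12 at an unadjusted p under 0.05, with a median of 0.79. MPEG1, a pore-forming protein of macrophages, passed edgeR's test only narrowly (1.62 ± 0.28, adjusted p = 0.05 after rounding). MS4A7 stood at 0.84 ± 0.15 and just missed the threshold (adjusted p = 0.0501 by edgeR). Of 16 further genes of Kupffer cells 11 were fitted higher and 0 passed, with a median of 0.08. SPIC, a transcription factor of macrophages that recycle iron, stood at 1.27 ± 0.34 and the iron exporter SLC40A1 at 0.59 ± 0.15. Among 9 receptors for dying cells and scavenged ligands the median was 0.41, with MSR1 at 1.56 ± 0.38 and CD36 at 0.57 ± 0.15. Of 11 genes of monocytes and of macrophages that arise from them 8 were fitted higher (median 0.70), LYZ at 1.15 ± 0.22 and CCR2 at 1.33 ± 0.26. Of the genes named here MPEG1 alone passed the test.

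For the partners of C1q and of CSF1R the values were closer to 0 at year 0. The 10 genes of the C1 complex and the classical pathway had a median of -0.06, with C1S at 0.13 ± 0.09 and C1R at 0.16 ± 0.12. The growth factors CSF1 and IL34 stood at -0.10 ± 0.14 and 0.18 ± 0.24. Among all 12 ligands and growth factors 8 were fitted higher (median 0.15), with TGFB1 at 0.61 ± 0.14, and 0 passed. Haptoglobin (HP), second in this list by p, was fitted lower in CR, at -0.47 ± 0.18. At an unadjusted p under 0.05 by edgeR the list held 2 genes higher and 2 lower. Of the 10 hepatocyte genes, 9 were fitted lower in CR and 1 passed, the asialoglycoprotein receptor subunit ASGR2 (-0.57 ± 0.09). The summed hepatocyte genes ran from 157300 to 224800 normalised CPM in CR and from 174000 to 223100 in Control at year 0. Red blood cell genes were fitted lower in 6 of 6 (median -1.31), at 66.2 to 373.2 normalised CPM in sum in CR and 163.9 to 624 in Control. T, NK and B cell genes had a median of 0.59, endothelial genes of the sinusoids 0.38, cholangiocyte genes 0.02 and stellate cell genes -0.29. The part of cell makeup in the differences of the 10 genes was not tested.

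**Figure D3:**
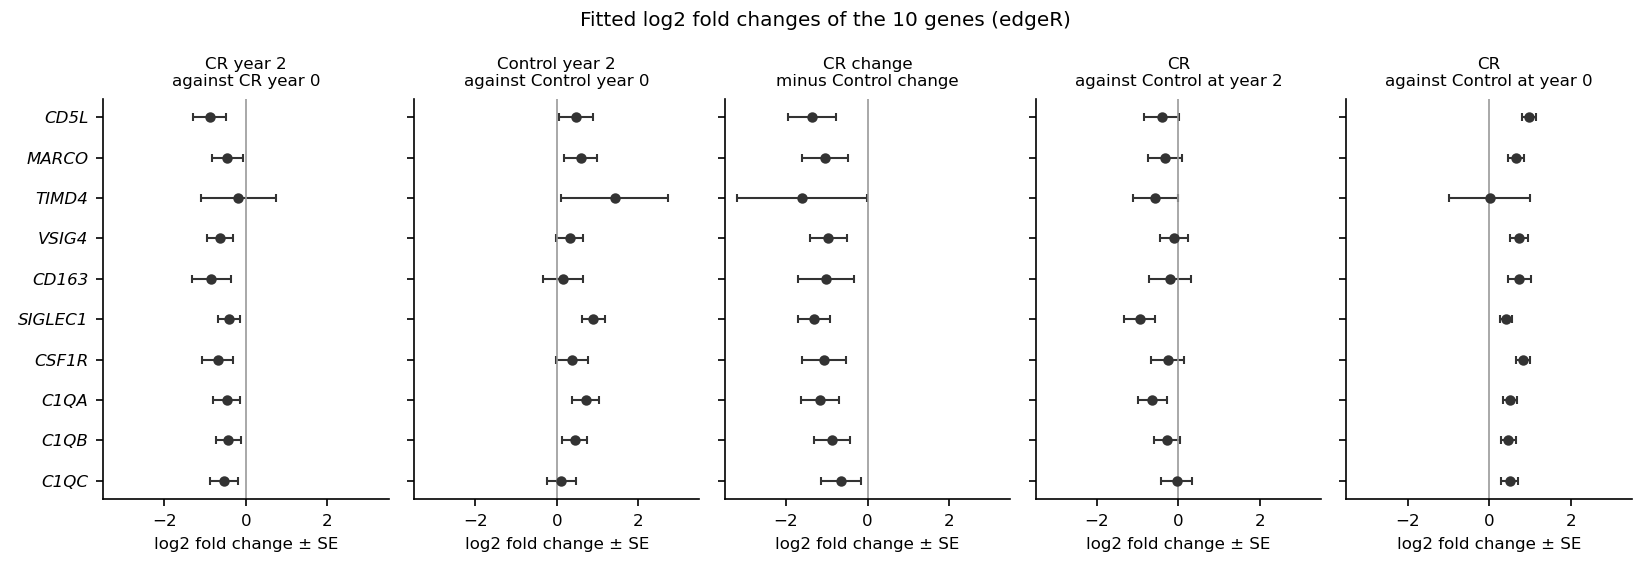
Log2 fold changes fitted by edgeR, with SE, of the 10 genes in 5 comparisons. The vertical line marks no difference. All 10 points are below it for CR year 2 against CR year 0, and all 10 are at or above it for CR against Control at year 0.

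In the CR animals, year 2 was compared with year 0 within each animal. All 10 genes had fitted values below 0, with a median of -0.50 against 0.00 over all 13730 genes, of which 49.8% were fitted lower. None passed: edgeR called 0 of the 10, and of all genes 0% by edgeR, 0.131% by DESeq2 and 0% by limma on log2(TPM + 1), with 0 of the 10 by either. At an unadjusted p under 0.05 edgeR also had 0 of the 10, against 1.76% of all genes lower. CD5L stood at -0.88 ± 0.41 (SE, unadjusted p = 0.0507, adjusted p = 0.999 by edgeR), CD163 at -0.85 ± 0.48, CSF1R at -0.69 ± 0.38 and VSIG4 at -0.64 ± 0.32. C1QC, C1QA, MARCO, C1QB, SIGLEC1 and TIMD4 lay between -0.53 and -0.18.

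CD5L and CSF1R were lower at year 2 in 5 of 5 CR animals, as were 5.64% of all genes. The size of the difference was unequal among the animals. CD163 differed by -1.91 and -2.15 on the log2 scale in animals 004 and 007, and by -0.14, 0.07 and -0.16 in 008, 011 and 012. C1QC differed by -1.53 and -1.25 in 004 and 007, against -0.22, 0.08 and 0.24 in the other 3. For each of the 10 genes except TIMD4 the 2 lowest changes in CR belonged to 004 and 007. Without animal 004 the fitted CD5L change was -0.64, that of CSF1R -0.37, of VSIG4 -0.43, of C1QC -0.28, of C1QA and SIGLEC1 -0.235 each, of MARCO -0.20 and of C1QB -0.19. Without 007 that of CD163 was -0.51.

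Of the 14 pan-macrophage genes 13 were also fitted lower at year 2 in CR (median -0.56), with CYBB, a subunit of the phagocyte oxidase, at -0.94 ± 0.42 and the mannose receptor MRC1 at -0.87 ± 0.41. Of the 9 receptors for dying cells and scavenged ligands 9 were fitted lower (median -0.42), AXL at -0.65 ± 0.29. The other Kupffer cell genes had a median of -0.16, with SPIC at -1.20 ± 0.57, and the classical pathway genes a median of -0.06. Genes of monocytes had a median of -0.08, with VCAN at 1.47 ± 0.55 and CCR2 at -0.90 ± 0.41. Hepatocyte genes were fitted higher in 10 of 10 (median 0.15), cholangiocyte genes in 6 of 6 (0.56), and T, NK and B cell genes lower in 7 of 8 (-0.38). None of these genes passed edgeR's test in CR.

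In Control the same comparison gave fitted values above 0 for all 10 genes, with a median of 0.46 against 0.01 over all genes, of which 50.4% were fitted higher. None of the 10 passed (0% of all genes by edgeR, 1.56% by DESeq2, which also called 0 of the 10, and 0% by limma). SIGLEC1 alone had an unadjusted p under 0.05, at 0.90 ± 0.28 (SE, adjusted p = 0.305 by edgeR), where 7.11% of all genes were higher at that level. Its mean was 64.3 ± 36.8 normalised CPM at year 2 and 31.6 ± 7.46 at year 0 (SD, n = 5). C1QA stood at 0.71 ± 0.33, MARCO at 0.59 ± 0.40, CD5L at 0.47 ± 0.42, C1QB at 0.44 ± 0.30 and CSF1R at 0.38 ± 0.38. VSIG4 stood at 0.32 ± 0.32, CD163 at 0.16 ± 0.49, C1QC at 0.11 ± 0.35 and TIMD4 at 1.42 ± 1.31.

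The Control animals went different ways. CD5L differed by 0.65, 1.44 and 1.84 on the log2 scale in animals 001, 005 and 006 and by -0.70 and -0.89 in 009 and 010. CD163 differed by 1.66 and 1.56 in 005 and 006, and by -0.27, -1.08 and -0.95 in 001, 009 and 010. C1QC and CD163 were fitted below 0 when single Control animals were left out, C1QC at -0.13 without 006 and CD163 at -0.21 without 005. Without 006 the fitted change was 0.04 for CSF1R, 0.07 for VSIG4, 0.12 for CD5L, 0.22 for TIMD4 and 0.30 for MARCO. Without animals 001 and 009, whose libraries of year 2 stood apart, all 10 were fitted above 0 with a median of 0.69, and 0 passed (0.00722% of all genes). CD163 then stood at 0.83, CSF1R at 0.94, CD5L at 0.86, VSIG4 at 0.64, C1QC at 0.35 and TIMD4 at 2.51, further from 0 than with all animals. MARCO, at 0.75, was also further from 0. SIGLEC1 and C1QA, as given above, moved towards 0, as did C1QB, at 0.37 against 0.44 with all animals.

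Pan-macrophage genes were fitted higher in 13 of 14 in Control (median 0.42), LST1 at 0.95 ± 0.32 and TYROBP at 0.73 ± 0.27. Genes of monocytes and monocyte-derived macrophages were fitted higher in 10 of 11 (median 0.72), with TREM2, a lipid receptor of macrophages, at 1.23 ± 0.33. Kupffer cell genes outside the set had a median of 0.17. Of the 9 receptors for dying cells and scavenged ligands 6 were fitted higher (median 0.166). The first by p, CD36, was fitted lower, at -1.115 ± 0.337, and STAB2 higher, at 0.68 ± 0.25. Hepatocyte genes were fitted lower in 9 of 10 (median -0.45), and their summed level ran from 50460 to 237300 normalised CPM in Control at year 2 and from 174000 to 223100 at year 0. Endothelial genes had a median of 0.56 and stellate genes 0.37. None of these genes passed edgeR's test, and the part of cell makeup was not tested. The values of these lists include the year 2 libraries of Control 001 and 009, and the part of those libraries in them was not tested.

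The difference between the changes, CR minus Control, sets the changes of the 2 diets against each other. It was fitted below 0 for all 10 genes, with a median of -1.05 against 0.01 over all genes, of which 49.4% were fitted below 0. The values of the arms at year 0, which were fitted higher in CR for all 10 genes, enter this difference, and their part in it cannot be told apart from that of the diet. By edgeR 0 of the 10 passed (0% of all genes), as by DESeq2 (0.299% of all genes) and limma on log2(TPM + 1) (0%). At an unadjusted p under 0.05 were SIGLEC1 (-1.31 ± 0.39, adjusted p = 0.668), C1QA (-1.18 ± 0.47, adjusted p = 0.696) and CD5L (-1.36 ± 0.59, adjusted p = 0.72), where 4.21% of all genes were lower at that level. VSIG4 stood at -0.96 ± 0.46, CSF1R at -1.06 ± 0.54, MARCO at -1.04 ± 0.55, CD163 at -1.01 ± 0.68, C1QB at -0.87 ± 0.43, C1QC at -0.65 ± 0.49 and TIMD4 at -1.61 ± 1.60. In 0 of the 10 did the changes of the 5 CR animals lie wholly below those of the 5 Control animals, against 0.852% of all genes, and Control 010 lay within or below the CR range for each of the 10. Without animals 001 and 009 the median of the 10 was -1.25. The difference was then -0.86 for SIGLEC1, -0.85 for C1QA and -0.81 for C1QB, nearer to 0. It was further from 0 for the other 7, with CD163 at -1.68, CSF1R at -1.62, CD5L at -1.75, VSIG4 at -1.29 and TIMD4 at -2.71. The direction held for all 10 genes in each of the 17 alternatives, but the size did not. Leaving out single animals gave -2.95 (without 010) to -0.40 (without 006) for TIMD4, -0.96 (without 009) to -0.39 (without 004) for C1QC and -1.38 (without 009) to -0.64 (without 005) for CD163.

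Of the pan-macrophage genes 13 of 14 were likewise fitted below 0 in this difference, with LST1 at -1.54 ± 0.44. Of the other Kupffer cell genes 12 of 16 were (median -0.48), with the folate receptor FOLR2 at -1.02 ± 0.47, and of the monocyte genes 10 of 11 (median -0.95), with GPNMB at -1.36 ± 0.47. Of the 9 receptors for dying cells and scavenged ligands 8 were fitted below 0 (median -0.545), with STAB2 at -1.10 ± 0.36. The classical pathway genes had a median of 0.25 and the hepatocyte genes of 0.56. Of the 12 ligands and growth factors 7 were fitted below 0 (median -0.245). The first by p, APCS, was fitted above 0, at 1.37 ± 0.53, and TGFB1 below 0, at -0.81 ± 0.35. The growth factors stood at -0.21 ± 0.36 for CSF1 and -0.55 ± 0.48 for IL34.

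At year 2, CR was compared with Control directly. All 10 genes were fitted lower in CR, with a median of -0.31, where the median of all 13345 genes was -0.07 and 56.3% were fitted lower. None passed (0% of all genes by edgeR, 0.0529% by DESeq2 and 0% by limma, with 0 of the 10 by each). SIGLEC1 alone had an unadjusted p under 0.05, at -0.95 ± 0.38 (SE, adjusted p = 0.659 by edgeR), where 5.88% of all genes were lower at that level. Without Control 009 it stood at -0.55, and without both 001 and 009 at -0.37, where 0 of the 10 passed (0.0148% of all genes). C1QA stood at -0.64 ± 0.36 with all animals and -0.26 without both, and the other 8 lay between -0.56 for TIMD4 and -0.04 for C1QC. Without 001 and 009, CD163 and CD5L stood at -0.63 each, CSF1R at -0.59, VSIG4 at -0.33, C1QC at -0.27 and TIMD4 at -0.94, against -0.21 for CD163, -0.41 for CD5L, -0.26 for CSF1R and -0.11 for VSIG4 with all animals. VSIG4, C1QC, CD163 and CSF1R were fitted above 0 when single animals were left out, and without 006 CD5L stood at -0.05 and MARCO at -0.04. CD5L was at 211.7 ± 94.5 normalised CPM in CR and 280.0 ± 161.9 in Control, and CSF1R at 71.6 ± 30.9 in CR and 85.6 ± 47.4 in Control (SD, n = 5 each). For these 2 genes the spread within a group was larger than the difference between the diets. Of the 14 pan-macrophage genes 10 were fitted lower in CR at year 2 (median -0.14), with LST1 at -1.04 ± 0.34. Of the 9 receptors for dying cells and scavenged ligands 7 were fitted lower (median -0.133). The first by p, CD36, was fitted higher in CR, at 1.006 ± 0.385, and STAB1 lower, at -1.253 ± 0.496. Red blood cell genes were fitted lower in 6 of 6 (median -1.66) and stellate genes in 7 of 8 (median -0.63), their part in the values of the 10 genes was not tested, and 0 of them passed.

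The CR libraries of year 0 enter the comparison of the arms at year 0, the change in CR and the difference between the changes, so that these results share samples. CD5L shows the values side by side: 0.97 ± 0.18 for CR against Control at year 0, -0.88 ± 0.41 for the change in CR, 0.47 ± 0.42 for the change in Control and -0.41 ± 0.44 for CR against Control at year 2.

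Summed over the 10 genes, the libraries ran from 417.4 to 1220 normalised CPM in CR at year 2 and from 1113 to 1350 in CR at year 0. In Control the sum ran from 663.8 to 1779 at year 2 and from 600.9 to 1080 at year 0. The highest library held 4.26 times the sum of the lowest, against 2.06 times for the sum of the 14 pan-macrophage genes. CD14 had the highest level of those 14, at a median of 424.5 TPM, with AIF1 next at 62.4. Its fitted change in CR was 0.20, where the other 13 were fitted lower. Gene by gene the lists moved alike in CR, with a median of -0.50 for the 10 genes and -0.56 for the 14. The part of CD14 in the narrower spread of the pan-macrophage sum was not tested. The ratio of the sums varied between libraries. It was lowest, at 0.726 and 0.870, in CR 004 and 007 at year 2, followed by Control 001 at year 0 (0.895), Control 010 at year 2 (0.954), and Control 005 and 006 at year 0 (1.07 and 1.23). These 6 libraries were also the 6 with the lowest sum of the 10 genes. That sum is the numerator of the ratio, so the overlap is no separate observation. In the other 14 the ratio lay between 1.31, in CR 012 at year 2, and 1.89, in Control 009 at year 2. C1q made up between 34.9% and 53.8% of the summed normalised CPM of the 10 genes.

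**Figure D4:**
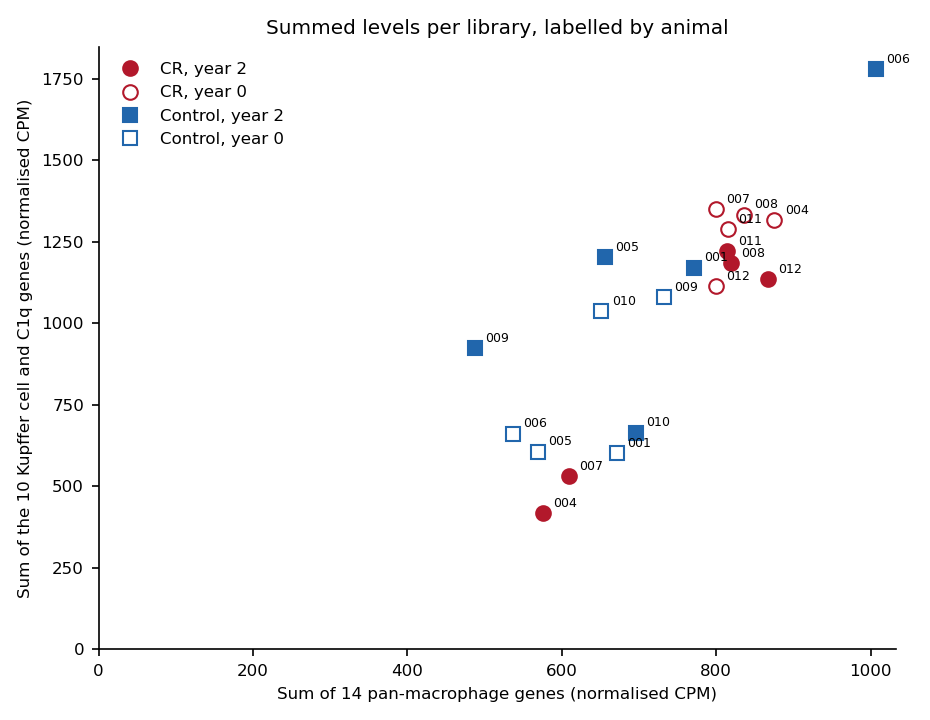
Sum of the 10 Kupffer cell and C1q genes against the sum of 14 pan-macrophage genes in each of 20 libraries, both in normalised CPM, labelled by animal. Filled symbols are year 2 and open symbols year 0. CR libraries of year 0 lie together between 1113 and 1350 on the vertical axis, and CR 004 and 007 at year 2 are the lowest at 417.4 and 529.7.

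The genes most like the set in pattern were sought by Pearson correlation of log2 normalised CPM with the mean of the 10 standardised genes, over 20 libraries and 13720 other genes. They were FOLR2 (r = 0.96), CD68 (0.94), C3AR1 (0.93), CMKLR1 (0.93), MAMU-DRB5 (0.92), LRRC25 (0.91), MS4A6A (0.90) and NCKAP1L (0.90). Spearman's rho of the 8 ran from 0.808 to 0.943. MAMU-DRB5 belongs to a family of near-identical genes, so that its estimated counts are uncertain. In the 18 libraries without Control 001 and 009 at year 2 the 8 highest were ADRBK2, MRC1, CPVL, NCKAP1L, FOLR2, TLR4, CD68 and C3AR1, with r from 0.95 to 0.97. FOLR2, CD68, C3AR1 and NCKAP1L were in both lists. The libraries share animals and depth, and r is a description only.

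Among the members themselves, r of a gene with the mean of the other 9 was highest for VSIG4, at 0.945 over 20 libraries, and lowest for SIGLEC1 at 0.579 and TIMD4 at 0.675. Over the 18 libraries without Control 001 and 009 at year 2 it was 0.964 for SIGLEC1, 0.969 for C1QA and 0.681 for TIMD4. The low value of SIGLEC1 thus rested on those 2 libraries and that of TIMD4 did not.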

How the data were processed

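The authors deposited estimated counts per gene, as RSEM gives them, and TPM per gene, for 20 libraries of total RNA from liver biopsies. Per the submitters' processing notes the tools were STAR, RSEM and DESeq2, listed with no role, and the build was Mmul_8.0.1 (rheMac8). The annotation and the strandedness were not given in the sources used here. Of the estimated counts 4.37% were not whole, and counts were rounded. Their comparison table (3071 genes) holds 0 of the 10 genes and was not used, nor were transcript and FPKM tables.

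Genes passing filterByExpr (10 of the 10 genes) were scaled by TMM and tested two-sided with edgeR 4.0.16 (quasi-likelihood F test, robust, R 4.3.3), adjusted by Benjamini-Hochberg over all genes tested, threshold 0.05. Changes with time and their difference came from 1 fit of 20 libraries with a term per animal. The arms were compared in the 10 libraries of each year. Normalised CPM are rounded counts scaled as CPM on the TMM-adjusted library size, and per-animal changes use log2(CPM + 0.5). Both biopsies of an animal carry its number in the labels, which gives the pairing. The correlation of an animal's deviations from the group means at year 2 and year 0 ran from -0.30 to 0.17. It was above 0.1 in 2 of 10 animals, so the pairing rests on the labels and is not shown by the values. Alternatives were DESeq2 1.42.0, limma 3.58.1 on log2(TPM + 1) and log2(TPM + 0.1), RLE scaling, no filter, no animal block, all 20 libraries for the arms, and leaving out animals. The fits for the change in CR and for the arms at year 0 were tried on simulated counts without animal differences. The simulated log2 changes were of size 2, larger than any fitted for the 10 genes there, so smaller changes were not tried. Precision is limited by 5 animals per group. The 10 genes and the 12 other lists were chosen with earlier results of these data known. All 10 genes were described, and of each other list at most the 2 genes with the smallest p in a comparison. CSF1 and IL34 were named outside that rule, after their values were seen. The genes most like the set are the 8 with the highest r. Symbols of the 10 matched the gene name list.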

Additional observations from a re-analysis of the deposited data

How the results depend on the processing

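Of the 10 genes, 0 passed in 4 of the 5 comparisons under every alternative. CR against Control at year 0 was the exception: 4 of the 10 passed by DESeq2, 3 by limma on log2(TPM + 1) or log2(TPM + 0.1), 2 without animals 001 and 009, and 0 to 2 when single animals were left out. Over all genes edgeR called 32 at year 0, against 780 by DESeq2, 384 and 356 by limma with pseudocounts of 1 and 0.1, 13 without a filter, 228 without 001 and 009, 0 with all 20 libraries in the fit, and 3 to 340 without single animals. DESeq2 called 18 genes for the change in CR, 210 in Control, 41 for their difference and 7 at year 2, where edgeR called 0. Without 001 and 009 these were 1, 1, 1 and 2, and limma with a pseudocount of 0.1 called 1 in CR. Leaving out single animals gave 0 to 1 in CR, 0 to 3 in Control and 0 to 1 for the difference. The fits without the animal block, which ignore the pairing, called 0 genes. Directions turned only in leave-outs of single animals: TIMD4 at year 0 (-0.32 to 0.73) and in CR (-0.41 to 0.10), C1QC (-0.13 to 0.42) and CD163 (-0.21 to 0.53) in Control, and at year 2 VSIG4 (-0.244 to 0.071), C1QC (-0.18 to 0.23), CD163 (-0.42 to 0.17) and CSF1R (-0.427 to 0.093). The causes were not tested. TIMD4 had at most 131 counts in a library, which limits its precision.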
